A study of Mus musculus with 3 samples.

Results

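The genes described here encode the proteins of the cytosolic ribosome. They were taken by name from the deposited table of 16178 genes: 83 rows, 32 for the small subunit and 51 for the large subunit. Names of the form Rps or Rpl with a number were kept, with Rplp0, Rplp1, Rplp2 and Rpsa, and the S6 kinases (Rps6k genes), whose names also begin with Rps, were left out. Single cells came from the subventricular zone, the stem cell niche along the lateral ventricles of the adult brain, of male wild-type C57BL/6J mice, with no treatment. In each of 3 experiments the tissue of 8 mice was pooled, dissociated with trypsin, enriched with magnetic beads for cells with GLAST on their surface (the glutamate transporter of Slc1a3) and sorted into a plate. The 3 plates, of 43, 45 and 61 cells, form 1 group, and each is treated as 1 sample. Mice of a plate were not told apart, and myelin was removed in 2 of the 3 experiments, which the labels do not name. The labels give no age for the mice.

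The ribosome joins amino acids into protein, and each of its proteins is needed in about the same amount. Their messenger RNAs are among the most abundant of growing and dividing cells. Most begin with a C followed by an unbroken run of pyrimidines (C or T), the 5′ terminal oligopyrimidine tract, through which the kinase complex mTORC1 and the RNA-binding protein Larp1 set how strongly they are translated. In the adult subventricular zone, stem cells leave quiescence with a rise in ribosome and protein production before they divide.

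Long pyrimidine runs near the annotated start were visible in the reference sequence of part of the family. RefSeq promoter records (GRCm38.p6) matched 62 of the 83 genes, and the 25 bases from 10 before to 15 from the annotated start were read on the gene's strand. The first 6 sequences below have pyrimidine runs of 13 bases or more and the last 3 are genes named in the results whose windows hold only short runs. The longest run is in capitals, and it was not required to begin at the annotated start or with a C.

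Rpl27a, chr7:109519185-109519209, + strand: cgtgagCTCCTCCCTTTTCCCTTTC

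Rpl35, chr2:39005117-39005141, - strand: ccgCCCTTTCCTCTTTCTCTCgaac

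Rpl7a, chr2:26910797-26910821, + strand: CTCTTCTTTCTTTCTCCagcagccg

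Rpl15, chr14:18270972-18270996, - strand: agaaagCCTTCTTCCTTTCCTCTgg

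Rps10, chr17:27635230-27635254, - strand: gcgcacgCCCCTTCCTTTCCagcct

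Rpl13a, chr7:45128731-45128755, - strand: cctgcgacaagaCCTCCTCCTTTCC

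Rpl4, chr9:64173377-64173401, + strand: TTTCCTgtgggagcagccgggtaga

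Rpl41, chr10:128549154-128549178, - strand: gggccggCTCggaagtgacgacacc

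Rps3a1, chr3:86142654-86142678, - strand: gCCggaagggcgaaagagcaagggt

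A run of 8 or more pyrimidines stood in 19 of the 62 windows (30.6%), against 9.41% of the same window in 27025 genes. The median longest run was 5.5 bases in the ribosomal protein genes and 4 in all genes. The letters CTTTCC, all pyrimidines themselves, were found on the gene's strand in 8 of the 62 (12.9%) and in 1.03% of all windows. On the other strand they were in 0 of the 62 and in 0.999% of all. An annotated start may lie some bases from the start used in these cells, so a short run says only that these letters are not in this window.

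Ribosomal protein transcripts made up 2.34% of all transcripts, 27880 of 1189805 in 149 cells. In single cells the share ran from 0.294% to 9.49%, with a median of 1.92%. A median gene had 349 transcripts and was found in 105 of the 149 cells. Values are transcripts estimated from molecular identifiers, 1 tag at the 3′ end of a transcript, so levels were compared between genes without scaling by length. Levels are given as CPM, transcripts scaled to a total of 1000000. A count of 0 allows up to 3 transcripts, or 2.52 CPM over all cells.

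Rpl4, which lines the exit tunnel of the large subunit, was the most abundant, with 1098 transcripts in 137 cells. Outside cluster 4, the cells of which are described below, it stood at 794, 645 and 820 CPM on plates 1, 2 and 3. Among the most abundant were also Rps24 (763 transcripts), Rpsa (753), Rps9 (677), Rps27a (609), Rpl41 (600), Rpl23 (596) and Rplp1 (592). Rpsa is also known as the laminin receptor precursor, Rps27a is made as a fusion with ubiquitin, Rpl41 is among the smallest proteins known, and Rplp1 belongs to the stalk that recruits elongation factors. The 10 most abundant genes together held 25.0% of the family's transcripts, and Rpl4 alone held 3.94%.

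At the other end, 6 genes were listed at 0 in every cell: Rpl10l, Rpl3l, Rpl39l, Rpl26, Rpl34 and Rplp2. The first 3 are paralogs known from testis (Rpl10l and Rpl39l) and from striated muscle (Rpl3l), and their parents Rpl10, Rpl3 and Rpl39 had 505, 529 and 289 transcripts. Rpl26, Rpl34 and Rplp2 are core proteins that every ribosome contains. Rpl37 with 1 transcript, Rps15a with 2 and Rpl30 with 6 are core genes too. Since every cell needs these 6 core genes, they are given here only as listed.

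The other paralogs were low. Rps27l had 62.0 transcripts, Rpl7l1, a protein of large-subunit assembly, 42.0, and Rpl22l1 had 1 beside 177 for its parent Rpl22. The row named Rps4y2 had 28.0 transcripts against 450 for Rps4x, and RefSeq lists that name as a synonym of Rps4l, a transcribed pseudogene. Rpl7, the parent of Rpl7l1, had 413.

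Many of these genes have processed pseudogenes, so the last 300 bases of each gene's principal transcript in GENCODE vM21 (GRCm38) were cut into stretches of 50 bases and looked up in all other annotated genes. A median of 62.9% of the stretches occurred in another gene. For 19 of the 83 no stretch did, among them Rpl4, Rps24 and Rpl12, and for 7 more than 90% did. Rplp2 (80.1%), Rps15a (77.3%), Rpl30 (80.9%), Rpl26 (64.1%) and Rpl34 (54.2%) share much of their tails with other genes, and Rpl37 shares none. Across the 83 genes the shared part and the transcripts had a Spearman rho of 0.055, a description over genes that share libraries. The sources used here do not say how reads that match several genes were counted, so counts of genes with shared tails are uncertain.

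**Figure D1:**
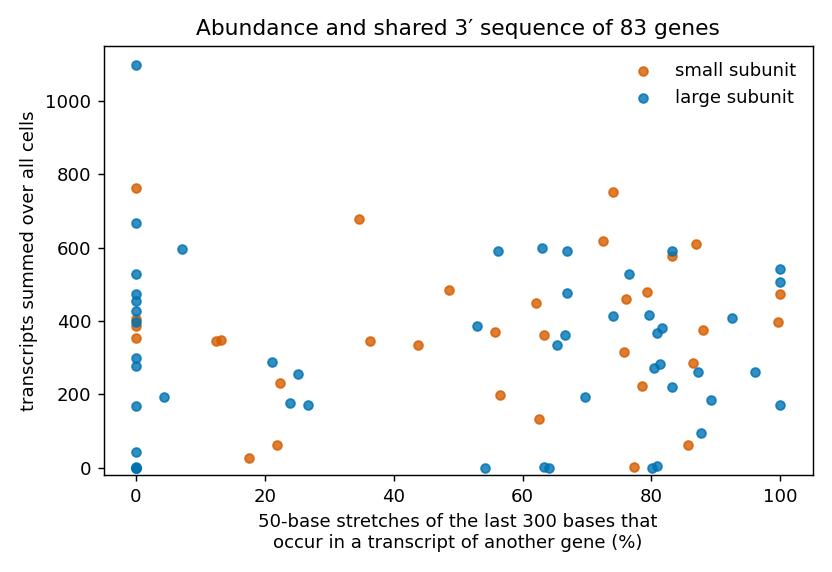
Transcripts of each of the 83 genes summed over 149 cells (y axis) against the percentage of 50-base stretches in its last 300 bases that another gene also holds (x axis), coloured by subunit. Genes with no shared stretch reach from 0 to 1098 transcripts, and genes listed at or near 0 stand at both low and high shared percentages.

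The authors' 5 clusters served to compare cell types. All 7 microglia markers were highest in cluster 1 (36 cells), all 7 quiescent stem cell or astrocyte markers in cluster 3 (30 cells) and all 6 activated stem cell or progenitor markers in cluster 4 (6 cells). Of the 6 oligodendrocyte markers 3 each were highest in cluster 0 (42 cells) and in cluster 2 (35 cells). The labels call the sorted cells neural stem cells, while most cells lay in the clusters with oligodendrocyte or microglia markers. Of 6 neuroblast markers 4 were highest in cluster 4, where Tubb3 and Cd24a were at 0. The clusters were drawn from the same expression values, so levels by cluster are a description and were not tested. Well names recur between plates, 50 of them on at least 2 plates and 13 on all 3, as they do where plates share a layout of wells.

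Cluster 4, which resembled activated stem cells or progenitors, held the most ribosomal protein RNA. In its 6 cells the family made up 7.24% of transcripts, against 1.36% in cluster 3, whose markers were those of quiescent stem cells or astrocytes. Cluster 1, microglia-like, stood at 3.59%, and clusters 0 and 2, both oligodendrocyte-like, at 1.82% and 1.61%. Exact binomial 95% intervals, which cover counting error only, were 7.08 to 7.40% for cluster 4 and 1.31 to 1.42% for cluster 3.

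Cluster 3 held 1.35% on plate 1 and 1.52% on plate 3, and its only cell on plate 2 had 0.763%. Cluster 0 held 1.72% on plate 2 and 1.91% on plate 3, and its only cell on plate 1 had 1.63%. Cluster 2 held 1.87%, 1.47% and 1.67% on plates 1, 2 and 3. In these sums clusters 0 and 2 were above cluster 3 on each of the 3 plates, by as little as 1.67% against 1.52% on plate 3. There cluster 3 had 4 cells, and the intervals of clusters 2 and 3 overlapped (1.62 to 1.73% and 1.37 to 1.69%). As means of cells both clusters stood at 1.70% on plate 3. Cluster 1 held 4.18%, 3.71% and 2.48%, a mean of 3.46% ± 0.878 (SD, n = 3 plates). As sums its lowest plate was above every plate of clusters 0, 2 and 3. As means of cells it was not: the 3 cells of cluster 2 on plate 1 had 2.91%, and cluster 1 on plate 3 had 2.52%.

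Of the 6 cells of cluster 4, 5 lay on plate 1, with shares of 5.53%, 6.99%, 7.25%, 8.39% and 9.49%. The cell on plate 2 had 5.16%. The authors called 4 of them in G2M and 2 in S phase. Of the 143 other cells, 4 lay above the lowest of the 6, each of them in cluster 1, and the highest reached 7.06%. On plate 1 alone 1 other cell, at 5.92%, was above the lowest cell of cluster 4. The comparison of cluster 4 with the other clusters thus rests on 1 plate and 1 further cell.

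**Figure D2:**
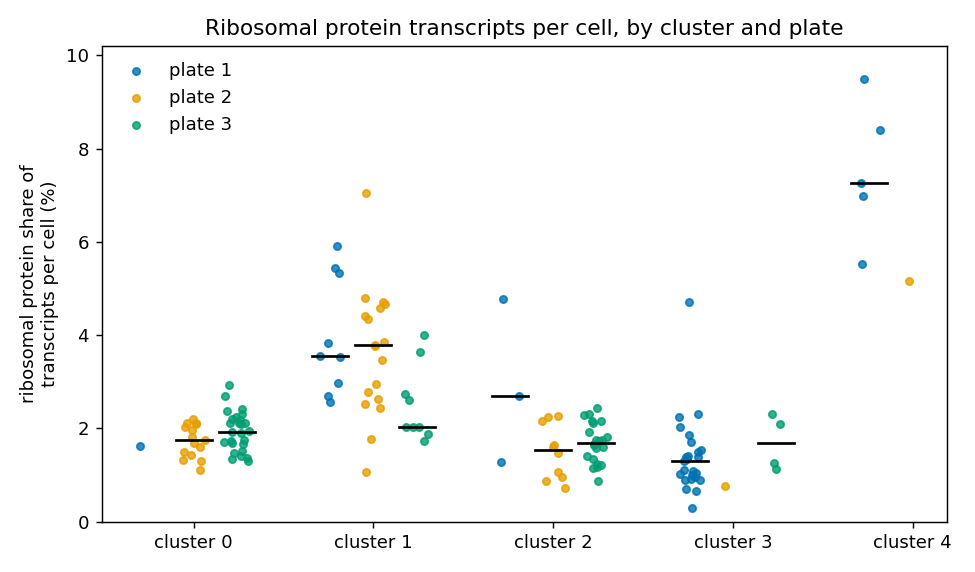
Ribosomal protein share of each cell's transcripts (y axis, percent) by the authors' cluster (x axis), 1 point per cell coloured by plate, with a line at the median where a plate has at least 3 cells of the cluster. The 6 cells of cluster 4 lie between 5.16% and 9.49%, and 4 of the other 143 cells, all in cluster 1, lie above 5.16%.

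Depth moved with these groups. The median total was 18159 transcripts in the 5 cells of cluster 4 on plate 1 and 4114 in the 25 cells of cluster 3 there. Cluster 1, the other cluster with a high share, had the shallowest cells, with a median of 3455 transcripts against 9530 in cluster 0. Outside cluster 4, 11 cells had at least the 15797 transcripts of the shallowest cluster 4 cell on plate 1, and their shares ran from 1.06% to 2.25%. Of the 11, 6 were in cluster 0 and 5 in cluster 2. No cell of cluster 3 was as deep, so the part of depth in the difference from cluster 3 was not tested.

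The number of genes of the family seen in a cell showed the same clusters apart. With every cell thinned to 1000 transcripts, the median cell of cluster 4 held 38 of the 83 genes, cluster 1 held 25, cluster 0 held 15.5, cluster 2 held 14 and cluster 3 held 11. Before thinning the medians were 72, 43.5, 59.5, 54 and 35.5 in the same order of clusters. Cluster 1 thus came after clusters 0 and 2 before thinning and ahead of them at equal depth.

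Over whole plates the share was 3.58%, 2.06% and 1.82%. Plate 1 stood apart through cluster 4: its 5 cells were 11.6% of the cells of the plate, 30.9% of its transcripts and 64.3% of its ribosomal protein transcripts. Without cluster 4 the plates held 1.85%, 1.99% and 1.82%, a mean of 1.89% ± 0.0895 (SD, n = 3). Over the series the 6 cells were 4.03% of cells and gave 26.2% of the family's transcripts.

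Both subunits kept about the same proportion. The small subunit gave 42.6%, 43.0%, 42.6%, 39.8% and 43.8% of the family's transcripts in clusters 0 to 4. Cluster 3 was the lowest through plate 1 (38.9%, 95% interval 36.6 to 41.2%). On plate 3 it had 43.2% (37.9 to 48.7%), an interval that includes the values of the 4 other clusters.

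The difference between clusters 4 and 3 was described gene by gene on plate 1, with 5 cells of cluster 4 and 25 of cluster 3. All genes with at least 10 transcripts in these cells together were compared as CPM, with 1 sum on each side and no test. Of 72 ribosomal protein genes 72 were more than 1.5-fold higher in cluster 4, where 41.2% of 4641 genes were. None was that much lower, against 35.6% of all genes. The median ratio was 5.37 in the family and 1.17 over all genes. A gene can pass the minimum through cluster 4 alone, so the count was repeated on genes with 10 transcripts in cluster 3: 66 of 66 were over 1.5-fold higher, against 519 of 2537 genes (20.5%).

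Among the widest differences were those of Rpl12, which sits at the base of the stalk, Rpl36a, Rpsa and Rpl3, a protein close to the site of peptide bond formation. Rpl12 had 991 CPM in cluster 4 and 61.2 in cluster 3, a ratio of 16.2 (95% interval 7.86 to 38.6, counting error only). Rpl36a had 685 against 45.9 (ratio 14.9), and each of its tail stretches also occurs in other genes. Rpsa had 2799 against 268 (10.5) and Rpl3 1307 against 130 (10.1). Cluster 3 held 8.00 transcripts of Rpl12 and 6.00 of Rpl36a, so the order of these 2 ratios is undetermined.

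The narrowest differences were in Rpl31 (196 against 107 CPM, ratio 1.83), the assembly protein Rpl7l1 (2.13), Rps14 (2.53), Rpl36 (2.68) and Rpl21 (2.77). The intervals of Rpl31 (0.858 to 3.97) and of Rpl7l1 (0.505 to 10.3) include 1. Rpl21 had 1187 against 428 CPM, with an interval of 1.99 to 3.89, and each of its tail stretches also occurs in other genes. These genes were picked as the ends of 72 ratios, so the distance between them was not tested.

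Genes with and without shared tails had ratios of the same size. For the 15 of the 72 genes with no shared tail stretch the median was 6.45 (2.13 to 16.2), and for the 43 with over 50% shared it was 5.30 (1.83 to 14.9). Among genes with a RefSeq window, the 16 with a run of 8 or more pyrimidines had a median of 6.34 (3.23 to 8.54) and the 37 others one of 5.29 (1.83 to 16.2), and the ranges overlapped. The small subunit had a median of 5.85 over 30 genes and the large subunit 5.14 over 42.

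Ribosomal components outside the naming rule stood higher too. Gnb2l1, the scaffold Rack1 on the small subunit, had 1132 CPM in cluster 4 and 237 in cluster 3 (ratio 4.78). Fau, made as a fusion with a ubiquitin-like protein, had 478 and 161 (2.98). Both were past 1.5-fold.

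The wider translation machinery was read from lists of known genes, beside the 41.2% of all genes that were higher. A gene can again pass the minimum through cluster 4 alone, so each count is followed by that over genes with 10 transcripts in cluster 3, where 20.5% of all genes were higher. Of 6 genes measured on the elongation factor list 6 were over 1.5-fold higher, with a median ratio of 5.12. With 10 transcripts in cluster 3 it was 5 of 5. Both counts include Tpt1 (ratio 4.21), which is not itself an elongation factor. Eef1a1, which brings aminoacyl-tRNA to the ribosome, had 3834 and 635 CPM (6.04), Eef1b2 1351 and 176 (7.68) and Eef2, the translocase, 1221 and 367 (3.32). Of 29 genes on the initiation factor list, Pabpc1 and Eif6 among them, 24 were higher and 2 lower, with a median of 4.09. With 10 transcripts in cluster 3 it was 12 of 16, with 1 lower and a median of 3.04. The helicase Eif4a1 stood at a ratio of 6.35 and Eif1, which scans for the start codon, at 1.83. The 2 that were lower were Eif3k and Eif6, each with about 3 transcripts in cluster 4.

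Of 19 ribosome biogenesis genes measured 14 were higher and 1, Nob1, was lower, with a median ratio of 4.85. With 10 transcripts in cluster 3 only 5 remained, 3 of them higher, with a median of 2.13. Npm1, a nucleolar chaperone, had 1373 and 283 CPM (4.85), nucleolin (Ncl) 468 and 91.8 (5.09) and fibrillarin (Fbl), which methylates ribosomal RNA, 196 and 38.2 (5.12). The list of mTORC1 and translation control had 4 of 7 higher and 1 lower, with a median of 1.73. With 10 transcripts in cluster 3 it was 2 of 4, with 1 lower and a median of 1.37. Its highest was Mycn, a transcription factor that drives growth, at a ratio of 30.6 with 2 transcripts in cluster 3 (95% interval 7.96 to 260). Rps6kb1, which phosphorylates Rps6, was the lower gene (0.631), and the interval, 0.238 to 1.53, includes 1.

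**Figure D3:**
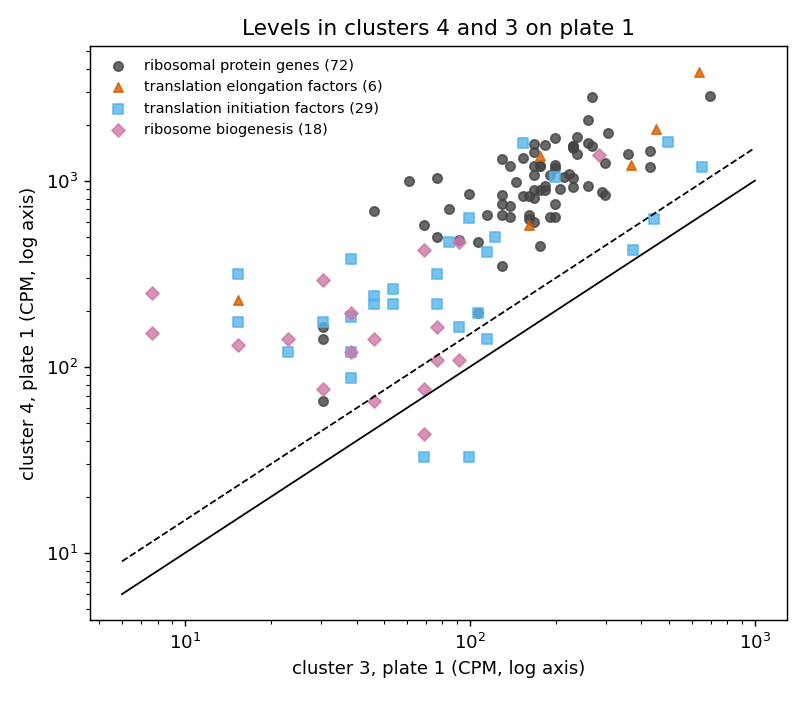
CPM in cluster 4 (y axis, log scale, 5 cells) against cluster 3 (x axis, log scale, 25 cells) on plate 1, 1 point per gene with at least 10 transcripts, coloured by list; a biogenesis gene at 0 in cluster 3 is not drawn. The solid line marks equal levels and the dashed line a 1.5-fold higher level: the 72 ribosomal protein genes lie above the dashed line.

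The second group with much ribosomal protein RNA was cluster 1. Against the oligodendrocyte-like clusters 0 and 2 of the same plate its share was higher on 3 of 3 plates, by a mean ratio of 2.02 ± 0.557 (SD, n = 3; 1.38 to 2.38). Of 65 genes with at least 100 transcripts in these cells, 48 were higher in cluster 1 on each of the 3 plates, where 20.4% of 1546 genes were. None was lower on all 3, against 48.0% of all genes. The median ratio was 2.11 in the family and 0.621 over all genes. On plate 1 clusters 0 and 2 had only 4 cells, and a gene counted as higher by any amount.

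Rpl12 showed the widest difference here as well. It had 505, 706 and 545 CPM in cluster 1 on plates 1, 2 and 3, and 111, 125 and 99.5 in clusters 0 and 2 (ratio 5.69). Rplp1 had 1517, 1304 and 1091 against 289, 287 and 282 (4.61). Rps29, a small zinc-binding protein of the small subunit, had 1382, 1100 and 797 against 88.9, 251 and 268 (4.42). The value of 88.9 rests on the 4 cells of clusters 0 and 2 on plate 1, which held 45014 transcripts in all. For each of the 3 genes the lowest plate of cluster 1 was above the highest plate of clusters 0 and 2. Rps12 (4.34) and Rpl10a (3.83) came next, and Rpl28 had the lowest ratio, 0.946.

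The make-up of the family differed between clusters as well. Among 59 genes with at least 200 transcripts, the share of each in the family's transcripts was compared over clusters 0 to 3. The coefficient of variation had a median of 20.2%. Counting error adds to each coefficient and was not separated from it: cluster 3 held 2142 transcripts of the family and cluster 1 held 4566. It was largest for Rpl12 (65.2%), Rplp1 (44.4%) and Rps29 (43.7%). Rpl12 made up 0.628%, 1.75%, 0.662% and 0.514% of the family in clusters 0, 1, 2 and 3. Rplp1 made up 1.61%, 3.66%, 1.71% and 1.82%, and Rps29 1.40%, 3.09%, 1.53% and 1.45%. All 3 took a larger part of the family in cluster 1 than in the 3 others.

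By this measure the steadiest gene was Rpl41, with 2.01%, 2.08%, 2.16% and 2.19% and a coefficient of variation of 3.98%. How far counting error sets this order was not tested. Rps16 (6.54%) and Rps13 (6.65%) came next. Rpl4 took a smaller part of the family in cluster 1, with 4.45%, 2.52%, 4.06% and 5.00% in clusters 0 to 3. Its level there was still higher on 3 of 3 plates, 1280, 774 and 839 CPM against 756, 624 and 824 in clusters 0 and 2 (ratio 1.22).

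Autofluorescence, light that cells emit without a label, was recorded for each sorted cell, and its relation to activation state is the subject of the series. A cell was called high where its autofluorescence exceeded the median of the plate, and low otherwise. Transcripts were summed per plate and class, giving 3 high and 3 low sums, and tested over all genes with edgeR's quasi-likelihood test blocked by plate, and p-values were adjusted over all genes by Benjamini-Hochberg at 0.05. The 2 sums of a plate come from the same mice. The split was made in all cells, without cluster 4, without cluster 1, without both, and within each plate and cluster. These 5 comparisons share cells and are given side by side. In the first 4, 69 of the 83 genes passed the filter on low counts, and in the last 70 did.

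No ribosomal protein gene passed the threshold in any of the 5 comparisons. The background was 4.03% of 3723 genes in all cells, 3.69% of 3687 without cluster 4, 0.378% of 2913 without cluster 1, 0.116% of 2587 without both and 0.0% of 3540 within plate and cluster. At an unadjusted p under 0.05, edgeR had 2, 4, 24, 4 and 2 genes of the family in the same order. DESeq2 called 0 as well, with 0, 0, 9, 0 and 0 at an unadjusted p under 0.05. In data simulated for the first comparison (4016 genes), edgeR found 20.2% of genes changed 2-fold and 88% of genes changed 4-fold. Most 2-fold changes thus went uncalled in that simulation, and 7.69% of its calls were false. In the other comparisons fewer 2-fold changes were found: 14.0% without cluster 4, 14.0% without cluster 1, 7.22% without both and 14.1% within plate and cluster. Each simulated gene had the same dispersion, with no difference between plates but depth. The changed genes were drawn from all that passed the filter, so these rates need not hold for this family.

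In all cells the share in high cells was 1.81%, 2.25% and 1.81% on plates 1, 2 and 3. In low cells it was 4.86%, 1.88% and 1.83%. The difference, high minus low, had a mean of -0.901 percentage points with an SD of 1.87 (n = 3), less than its spread, and high cells were higher on 1 of 3 plates. All 6 cells of cluster 4 were low cells. Cells of cluster 1 were mostly high cells, 8 against 1 on plate 1, 15 against 3 on plate 2 and 9 against 0 on plate 3.

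The fitted log2 change was below 0 in 64 of the 69 genes tested, with a median of -0.35 against -0.04 over all genes. The direction did not hold throughout: without plate 1 the median was 0.15. For the highest against the lowest tercile of cells it was 0.21, with 26 of 69 genes below 0, and the mean of the shares per cell gave a difference of 0.172 percentage points. The smallest p belonged to Rpl27, which had 87.9, 142 and 132 CPM in high cells and 412, 157 and 192 in low cells. It was lower in high cells on 3 of 3 plates, and the log2 change was -0.89 with an SE of 0.40 (adjusted p = 0.383, edgeR). Rplp0, the scaffold of the stalk, had a change of -0.82 (adjusted p = 0.416 in edgeR) and Rpl4 one of -0.69 (edgeR, adjusted p = 0.483).

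Leaving out cluster 4 turned the direction. The share was then 2.00%, 2.25% and 1.81% in high cells and 1.69%, 1.74% and 1.83% in low cells, a mean difference of 0.267 percentage points with an SD of 0.266 (n = 3). Plates 1 and 2 were higher in high cells and plate 3 was not. The median log2 change was 0.22 against -0.01 over all genes, with 13 of 69 genes below 0. The 4 genes at an unadjusted p under 0.05 were all higher in high cells.

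The smallest p values here were those of Rpl12, Rplp1 and Rpl14, and the first 2 also had the highest ratios of cluster 1 to clusters 0 and 2. Rpl12 had 172, 329 and 148 CPM in high cells and 99.2, 140 and 91.7 in low cells, and the groups did not overlap. Its log2 change was 0.94 with an SE of 0.35 (adjusted p = 0.177, edgeR). Rplp1 had 555, 602 and 361 against 337, 343 and 275, a log2 change of 0.65 (edgeR adjusted p = 0.320). Rpl14 followed with 0.86 (adjusted p = 0.402 in edgeR). Without cluster 4, microglia-like cells were 8 of the high and 1 of the low cells on plate 1, 15 and 3 on plate 2 and 9 and 0 on plate 3, and their part in these values was not tested beyond leaving the cluster out.

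Without cluster 1 the family was lower in high cells. The share was 1.10%, 1.54% and 1.74% in high cells and 5.19%, 1.93% and 1.87% in low cells, lower in high cells on 3 of 3 plates. The mean difference was -1.54 percentage points with an SD of 2.21 (n = 3), most of it from plate 1, where the low cells include 5 cells of cluster 4. Without plate 1 it was -0.262. Of 69 genes 68 had a log2 change below 0, with a median of -0.76 against 0.01 over all genes, and without plate 1 the median was -0.16.

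Rps3a1, a small-subunit protein near the exit of the messenger RNA, came first by p. It had 127, 219 and 246 CPM in high cells and 761, 548 and 330 in low cells. The highest of the high sums was below the lowest of the low sums, and the log2 change was -1.30 with an SE of 0.41 (adjusted p = 0.325, edgeR). Rplp1 had 164, 204 and 270 against 1116, 455 and 295, a log2 change of -1.22 (edgeR adjusted p = 0.493). Rps12 had 155, 154 and 239 against 868, 281 and 313 (-1.12, edgeR adjusted p = 0.541). All 24 genes at an unadjusted p under 0.05 were lower in high cells.

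With clusters 1 and 4 both left out the difference was small and in the same direction on each plate. The share was 1.10%, 1.54% and 1.74% in high cells and 1.91%, 1.71% and 1.87% in low cells. The mean difference was -0.372 percentage points with an SD of 0.380 (n = 3), and -0.153 without plate 1. The low cells of plate 1 include a cell of cluster 3 at 4.71% and a cell of cluster 2 at 4.77%, whose part was not tested. The median log2 change was -0.21 against 0.00 over all genes, with 50 of 69 genes below 0. Rps3a1 had 90.6, 219 and 246 CPM in high cells and 196, 531 and 330 in low cells, a log2 change of -0.84 (edgeR adjusted p = 0.519), lower on 3 of 3 plates with overlap between the groups. Rps21 (-0.69, edgeR adjusted p = 0.839) was also lower on 3 of 3 plates.

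**Figure D4:**
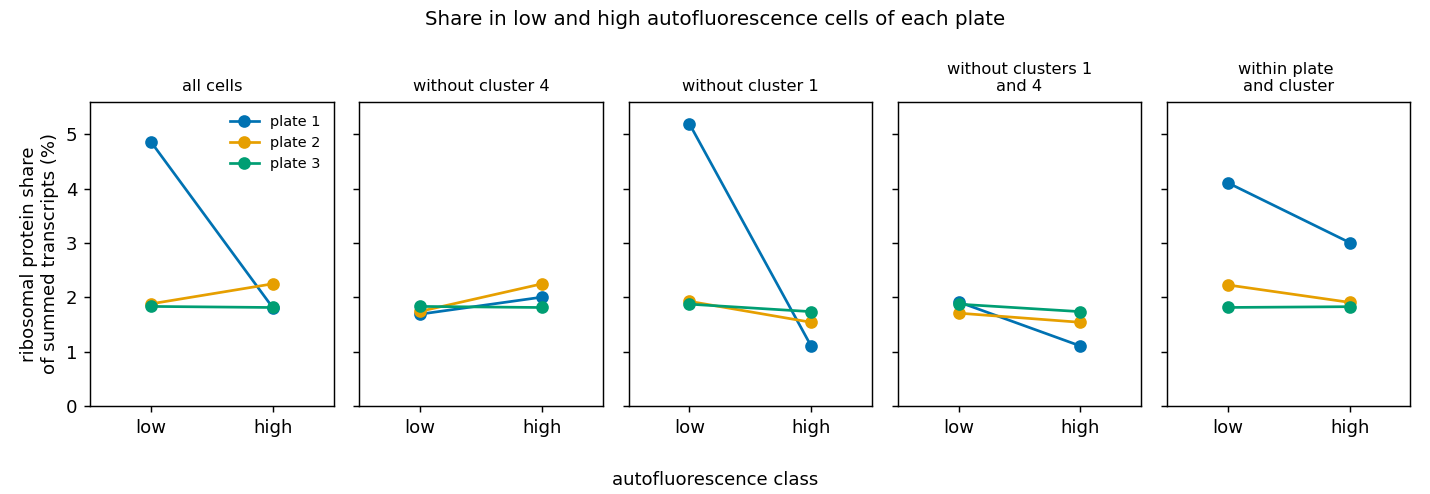
Ribosomal protein share of summed transcripts (y axis, percent) in the low and high autofluorescence cells (x axis) of each plate, 1 panel per set of cells and 1 line per plate. Plate 1 goes from 4.86% in low to 1.81% in high cells over all cells, and from 1.69% to 2.00% once cluster 4 is left out.

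When cells were split at the median of their own plate and cluster, the share was 3.01%, 1.91% and 1.83% in high cells. In low cells it was 4.11%, 2.23% and 1.81%. The mean difference was -0.469 percentage points with an SD of 0.572 (n = 3), and high cells were higher on 1 of 3 plates. The classes were not fully balanced by type: 2 high and 3 low cells of plate 1, and 0 high and 1 low cell of plate 2, belonged to cluster 4. A set of 1 cell falls in the low class, and without the 3 such sets the mean difference was -0.560. The median log2 change was -0.11 against 0.02 over all genes, and it ran from -0.27 without plate 3 to -0.05 for the highest against the lowest tercile. Rps3a1 had 412, 257 and 267 CPM against 635, 547 and 343 (log2 -0.62, edgeR adjusted p = 0.827). Rpl12 (-0.64, edgeR adjusted p = 0.853) was lower on 3 of 3 plates as well.

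Within single clusters the direction differed. Cluster 3 held 1.07% in 12 high cells and 1.80% in 13 low cells of plate 1, and 1.48% and 1.59% in 2 and 2 cells of plate 3. The 13 low cells of plate 1 include the highest cell of cluster 3, at 4.71%, and its part in the difference was not tested. Cluster 1 was at 2.99% in high and 4.86% in low cells of plate 1 and higher in high cells by 0.724 and 0.612 percentage points on plates 2 and 3. The differences, high minus low, were -0.165 on plate 2 and 0.0847 on plate 3 in cluster 0, and -0.288 and 0.00598 in cluster 2. In cluster 4 the 2 high cells of plate 1 held 8.25% and the 3 low cells 6.93%.

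None of the other translation genes passed the threshold in any of the 5 comparisons. In all cells the median log2 change was -0.31 over the 6 genes of the elongation factor list, Tpt1 among them. It was -0.41 over 27 genes of the initiation factor list and -0.57 over 8 biogenesis genes. Without cluster 4 they were 0.16, -0.15 and -0.11, so the elongation factors changed sign. Without cluster 1 they were -0.49, -0.54 and -0.58 (7 genes). Without clusters 1 and 4 these medians were -0.04, -0.22 (23 genes) and -0.41 (6 genes). Within plate and cluster they were -0.08, -0.13 and -0.15. The mTORC1 list stood at -0.08 over 6 genes in all cells, at 0.12, -0.17 and -0.11 over 5 without cluster 4, without cluster 1 and without both, and at 0.07 within plate and cluster.

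**Figure D5:**
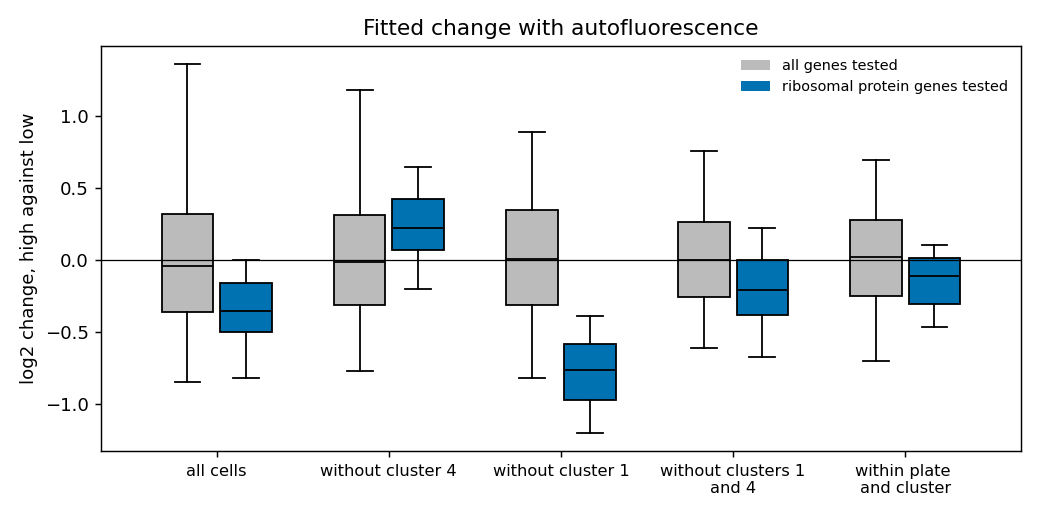
Fitted log2 change of high against low autofluorescence cells (y axis) in the 5 comparisons (x axis) for all genes tested (grey) and the ribosomal protein genes tested (blue); boxes span the quartiles with the median as a line, and whiskers the 5th to 95th percentile of genes. The family's median is -0.35 in all cells, 0.22 without cluster 4 and -0.76 without cluster 1.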

How the data were processed

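Single cells on 3 plates were sequenced with SORT-seq, a CEL-seq method for sorted cells. The values are expected counts: the authors deposited transcripts estimated from molecular identifiers, corrected for identifiers that collide. Named in the submitters' processing notes, with no role, are Seurat 4.1.1, BWA 0.7.15, R 4.2.0 and both mm10 and hg19; the sources used here give no annotation. Autofluorescence is an intensity that the authors deposited for each cell in arbitrary units. The authors' deposited percent of ribosomal transcripts equals, in 149 of 149 cells, the sum over all 100 rows whose names begin with Rpl or Rps, kinases and pseudogenes included; it differs from the share used here by at most 0.202 percentage points. The authors' clusters and phase calls were used as deposited, and no doublet caller was run. The last digit of a cell's library name gave its plate.

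Transcripts were summed per plate and class, rounded to whole numbers, filtered with filterByExpr, scaled by TMM and fitted with edgeR 4.0.16 (R 4.3.3), with plate as a block because both classes of a plate come from the same mice. DESeq2 1.42.0, other scalings and other cells were alternatives. The 3 plates are separate experiments, and p-values measure how the difference of high from low sums varies between them. edgeR was tested on simulated data with 200 changed genes. Shares and clusters have no test. The totals were 297573, 413728 and 478504 transcripts on plates 1, 2 and 3. The family and the lists were chosen with earlier results of these data known. Named genes were the 10 most and 5 least abundant, the members of smallest p in each comparison, the 5 highest and 5 lowest ratios of cluster 4 to cluster 3, the 3 most and 3 least variable in make-up, the paralogs with their parents, and the leading genes of each list. Others were named after their values were seen: Rpl4 in make-up, Rps12, Rpl10a and Rpl28 in cluster 1, and Nob1, Eif3k, Eif6, Eif4a1, Mycn and Rps6kb1. Some genes that this rule names are not reported here.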

Additional observations from a re-analysis of the deposited data

How the results depend on the processing

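No ribosomal protein gene was called under any alternative run for the 5 autofluorescence comparisons, and the genes named in them kept their direction. The family's median in all cells did not: it was -0.35 for sums split at the median, 0.21 for the terciles and 0.15 without plate 1. The counts over all genes did move. They were 150, 136, 11, 3 and 0 for all cells, without cluster 4, without cluster 1, without both, and within plate and cluster. With no replicate block each of the first 4 fell to 0 and the fifth was 0 too. Without 1 plate at a time they ran from 39 to 180, 56 to 180, 0 to 7, 0 to 8 and 0 to 4. With no filter on low counts they were 307 in all cells, 74 without cluster 1, 5 without both and 2 within plate and cluster. Without cluster 4, DESeq2 called 87. Without cluster 1, RLE size factors gave 7 and totals alone 1. For the highest against the lowest tercile of autofluorescence the counts were 68 without cluster 4, 0 without cluster 1 and 11 without both. Leaving out the 3 sets of 1 cell, chosen after seeing the data, gave 3 within plate and cluster. The cause of these moves was not tested.

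The family's median log2 change without cluster 4 was 0.70 for the terciles, and the difference in share was 0.838 percentage points for the terciles and 0.735 as a mean over cells. In all cells the mean over cells gave 0.172, against -0.901 for sums, and without plate 1 the sums gave 0.174. With the 10 most abundant other genes left out of the denominator, the share was 2.17%, 1.99%, 1.61% and 8.22% in clusters 0, 2, 3 and 4. By plate it was 4.14%, 2.47% and 2.19%. Without the 24 genes whose names begin with mt-, the plates had 3.66%, 2.11% and 1.87%. Mitochondrial messenger RNAs named without the hyphen, such as mtAtp6 and mtCytb, stayed in that denominator, so a share without all mitochondrial transcripts was not computed. As means over cells the plates had 2.77%, 2.50% and 1.92%. Without cluster 4, plates 1 and 2 had 1.85% and 1.99% as sums, and 2.14% and 2.44% as means over cells. Without 1 plate at a time cluster 4 had 5.16% to 7.44%. Unthinned medians of genes per cell were 59.5, 43.5, 54, 35.5 and 72 in clusters 0 to 4. Over 1.5-fold in clusters 4 and 3, with at least 30 transcripts, 564 genes were higher and 469 lower, with 69 of 69 of the family higher; past 2-fold 71 of 72 were. The 6 cells of cluster 4, 5 of them on 1 plate, limit what can be said of that cluster, and 3 plates limit the tests.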
